A study of Mus musculus with 9 samples.

Results

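The 10 genes described here encode enzymes that carry glucose through glycolysis to lactate. In pathway order they are Hk2, Pfkl, Aldoa, Tpi1, Gapdh, Pgk1, Pgam1, Eno1, Pkm and Ldha. Gpi1, the isomerase between hexokinase and phosphofructokinase, and other isozymes are outside the list and described further below. The 10 were chosen by gene symbol, with earlier results of these data known. They are among the 23317 genes in a table of read counts from mouse haematopoietic stem cells (HSCs). HSCs are the bone marrow cells that give rise to all blood lineages. All 10 were among the 14227 genes that passed a filter on low counts and were tested. The cells came from wild-type mice and were compared in 3 groups of 3 libraries: old HSC treated with ABC294640, old HSC, and young HSC. The submitters name ABC294640 as a specific inhibitor of SphK2 (sphingosine kinase 2, which phosphorylates sphingosine). The ages stated are 20 to 24 months and 2 to 4 months, assigned here to the old and the young groups by their wording. All 3 groups share the wild-type genotype, the bone marrow source and a low-input protocol that starts from 1500 sorted cells per library. The sources used here do not give the sort markers, nor how, how much and how long the inhibitor was given. Nothing in the labels states that libraries of the same group are from different mice, so p-values cover the spread among these libraries alone, which may be technical.

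Glycolysis splits glucose into pyruvate. Its preparatory steps spend ATP to phosphorylate and cleave the sugar, its later payoff steps return ATP and NADH, and lactate dehydrogenase then turns pyruvate into lactate and restores NAD+. Quiescent HSCs are known for relying on glycolysis in a marrow of low oxygen, where the hypoxia-inducible factor HIF-1 raises the transcription of many glycolytic genes. Most mammalian steps can be run by several isozymes encoded by separate genes, and the housekeeping genes of the pathway, Gapdh above all, have left many intronless copies (processed pseudogenes) in the mouse genome.

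Library totals ran from 16663460 to 23254133 counts. All 10 listed HSC markers were detected, but several were low: Procr averaged 3.19, 2.54 and 3.89 CPM (read counts scaled to a common library size) and Fgd5 0.450, 0.647 and 1.27 CPM in treated old, old and young HSC. Kit averaged 117, 113 and 119 CPM, whereas Mpo, a granule enzyme of myeloid progenitors, averaged 16291, 16797 and 11260.0 CPM in the same order. These 4 marker genes were picked out after their values were seen. The libraries are called HSC below as they were labelled. In such bulk libraries, fewer cells of a type and less RNA per cell cannot be told apart.

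Per kilobase of the longest coding transcript, the 10 enzymes spanned a wide range of levels. Gapdh had the highest level per kilobase in treated old HSC (1528 ± 13 CPM per kilobase, SD, n = 3) and in old HSC (1673 ± 63 CPM per kilobase), while in young HSC it stood at 691 ± 34 CPM per kilobase, below Ldha at 821 ± 21. Aldoa came next in all 3 groups, with 758, 762 and 577 CPM per kilobase in treated old, old and young HSC. Then came Eno1, Pgam1 or Tpi1, Pkm and Pgk1, and the order within the pair Tpi1 and Pgam1 changed between groups. In old HSC Tpi1 (331 ± 5.6 CPM per kilobase) and Pgam1 (327 ± 13 CPM per kilobase) lay within their SDs of each other. The 2 kinases of the preparatory steps stood far below the rest: Hk2 had 14.1, 12.7 and 11.3 CPM per kilobase and Pfkl 5.58, 5.61 and 6.53 CPM per kilobase in treated old, old and young HSC. With the union of all exons as the length, Ldha stood above Gapdh in every group, so the order of these 2 depends on the length used. It also depends on how reads were divided between Gapdh and its copies. With the counts of the copies added, Gapdh stood at 630 ± 8, 658 ± 27 and 472 ± 34 CPM per kilobase of all exons, above Ldha at 589 ± 8, 602 ± 14 and 450 ± 12 in treated old, old and young HSC (SD, n = 3). In young HSC that gap lay within the SDs. Per kilobase of the longest coding transcript, Gapdh with its copies stood at 1375 ± 99 CPM per kilobase in young HSC, above Ldha.

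The first comparison asks how HSCs of old and young mice differ. The summed CPM of 4 Y-linked genes also differed, at 128 to 142 in old HSC and 8.25 to 10.3 in young HSC. For every gene below, that gap cannot be told apart from age. The levels of 9 of the 10 enzymes were higher in old than in young HSC at an adjusted p under 0.05 (edgeR, adjusted over all genes tested), and none was lower. Of all genes tested, 19.6% were higher, 19.8% were lower and 39.4% were called in either direction in this comparison. The 10 were chosen with earlier results of these data known, so these shares describe the list and do not test it. The median log2 fold change of the 10 enzymes was 0.41, against -0.03 for all genes. All 6 enzymes from Gapdh to Ldha rose (median log2 fold change 0.47), and of the 4 preparatory enzymes Hk2, Aldoa and Tpi1 rose (median of the 4, 0.22). Pfkl was the exception, with a log2 fold change of -0.22 ± 0.09 (SE, edgeR adjusted p = 0.0561). The libraries of old and young HSC did not overlap for 9 of the 10 enzymes, all but Hk2, against 48.4% of all genes tested.

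**Figure D1:**
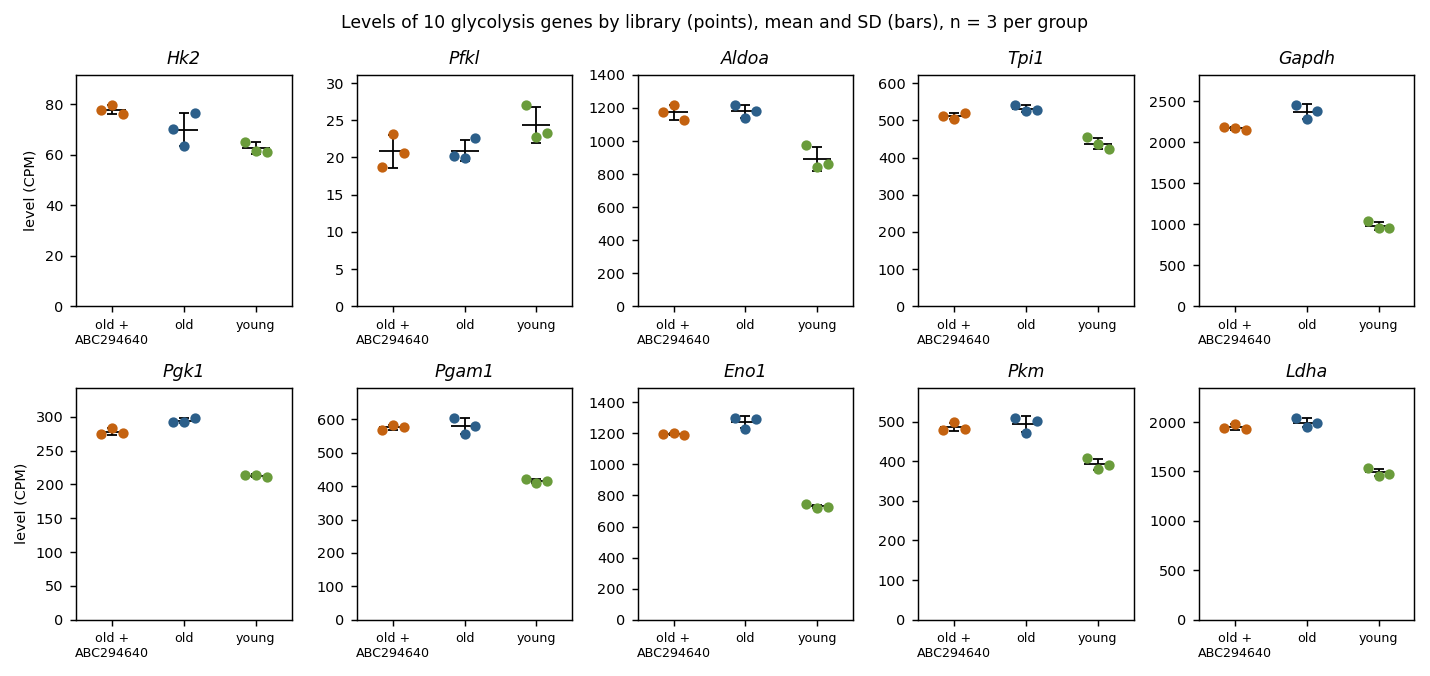
Level of each of the 10 enzyme genes in CPM (y axis, from 0) in the 3 libraries (points) of old HSC with ABC294640, old HSC and young HSC, with the mean and SD of 3 libraries as bars. The young libraries lie below both old groups for the enzymes from Aldoa to Ldha, and Gapdh shows the widest gap, at 2150.5 to 2188, 2281 to 2458 and 950.3 to 1037 CPM.

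Hk2 encodes hexokinase 2, which phosphorylates glucose as it enters the pathway. Its 3 libraries held 77.5, 79.7 and 76.0 CPM in treated old HSC, 70.0, 63.4 and 76.3 CPM in old HSC, and 65.1, 61.5 and 60.9 CPM in young HSC. The lowest old library lay below the highest young library, so the groups overlapped. The log2 fold change of old over young HSC was 0.16 ± 0.06 (SE), just past the threshold (edgeR adjusted p = 0.0481, from 0.00481 to 0.190 over 18 other settings). It was no longer past it without the third old library (adjusted p = 0.190), nor without 4 others left out in turn.

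Pfkl encodes the liver-type subunit of phosphofructokinase, the committed step of the pathway. It had 18.7, 23.2 and 20.5 CPM in treated old HSC, 20.2, 20.0 and 22.6 CPM in old HSC, and 27.1, 22.8 and 23.2 CPM in young HSC. The old and young libraries did not overlap, by a margin of less than 1 CPM. Pfkl passed the threshold as lower in old HSC when the second young library was left out (edgeR adjusted p = 0.0479), with a stricter filter on low counts (adjusted p = 0.0248) and with trends on GC content and length removed (adjusted p = 0.0447), within a range of 0.0248 to 0.275 over 18 other settings.

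Aldoa encodes aldolase A, which cleaves the phosphorylated sugar, and Tpi1 encodes the isomerase that interconverts the 2 products. Aldoa had 1176, 1219 and 1125 CPM in treated old HSC, 1218, 1139 and 1184 CPM in old HSC, and 977, 845 and 858 CPM in young HSC. Every old library lay above every young one, and Aldoa rose by 0.40 ± 0.05 on the log2 scale (SE, edgeR adjusted p = 2.65e-06). Tpi1 had 511, 504 and 519.5 CPM in treated old HSC, 542, 525 and 528 CPM in old HSC, and 454, 436 and 423 CPM in young HSC. Its groups were likewise apart by age, with a rise of 0.28 ± 0.04 (adjusted p = 1.74e-05).

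Gapdh encodes glyceraldehyde-3-phosphate dehydrogenase, the step that makes NADH. It had 2188, 2170.5 and 2150.5 CPM in treated old HSC, 2458, 2281 and 2388 CPM in old HSC, and 1037, 950.3 and 957 CPM in young HSC. The old libraries held more than 2 times the level of the young ones, and the log2 fold change of 1.28 ± 0.04 (2.42-fold, SE on the log2 scale, edgeR adjusted p = 4.18e-15) was the 162nd largest among all genes tested. This value depends on how reads were divided between Gapdh and its copies. The annotation holds 97 copies of Gapdh, defined here as other loci with at least 20% of their 31-base words in Gapdh transcripts. Of these, 72 were in the count table, 71 had any count, and 2 had over 1000 counts in all 9 libraries together.

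Those 2 are the processed pseudogenes Gm13394 (chr2:28933610-28934609, minus strand) and Gm12033 (chr11:20335012-20336013, minus strand), against Gapdh on the minus strand of chr6:125161715-125166467 (GRCm38, GENCODE release 21). Over 1000 and 1002 aligned bases, each differs from the 1002-base Gapdh coding sequence at 1 base, with no gap. The differences are A346C in Gm13394 and T504C in Gm12033, the Gapdh base first and positions counted from the first base of the coding sequence. The stretches around both are shown because a read from the rest of this coding sequence has the same letters in all 3 loci. The capital marks the base that differs. The first stretch covers coding positions 316 to 376 (chr6:125162986-125163144 in Gapdh, where it spans an intron, chr2:28934234-28934294 in Gm13394 and chr11:20335638-20335698 in Gm12033).
Gapdh: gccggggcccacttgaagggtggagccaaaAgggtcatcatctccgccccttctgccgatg
Gm13394: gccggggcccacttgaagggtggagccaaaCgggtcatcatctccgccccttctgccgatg
Gm12033: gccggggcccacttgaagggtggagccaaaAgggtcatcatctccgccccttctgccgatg
The second stretch covers coding positions 474 to 534 (chr6:125162694-125162888 in Gapdh, again across an intron, chr2:28934076-28934136 in Gm13394 and chr11:20335480-20335540 in Gm12033).
Gapdh: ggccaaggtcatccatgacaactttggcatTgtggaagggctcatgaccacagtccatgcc
Gm13394: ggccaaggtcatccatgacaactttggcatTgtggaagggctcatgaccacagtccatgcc
Gm12033: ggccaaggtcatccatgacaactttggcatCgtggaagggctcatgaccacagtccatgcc

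The copies moved opposite to Gapdh with age. Gm13394 had 305, 313 and 279.6 CPM in treated old HSC, 270.2, 226 and 231 CPM in old HSC, and 739, 647 and 625 CPM in young HSC. Gm12033 had 109, 127 and 120.3 CPM in treated old HSC, 90.2, 86.3 and 88.6 CPM in old HSC, and 323, 257 and 282 CPM in young HSC. No library of one group overlapped another group for either copy. In old against young HSC, Gm13394 fell by 1.47 ± 0.07 on the log2 scale (SE, edgeR adjusted p = 6.26e-13) and Gm12033 fell by 1.70 ± 0.07 (adjusted p = 1.09e-13). The ratio of Gm13394 to Gm12033 counts was 2.53 ± 0.25, 2.74 ± 0.22 and 2.34 ± 0.15 in treated old, old and young HSC (SD, n = 3).

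Of all counts given to Gapdh and its 72 copies, the copies took 16.4%, 17.3% and 16.1% in treated old HSC, 13.2%, 12.5% and 12.2% in old HSC, and 50.9%, 49.1% and 49.0% in young HSC. The share in young HSC thus stood apart from both old groups. Summed over the family, the level was 2618, 2625 and 2564 CPM in treated old HSC, 2833, 2607 and 2720.0 CPM in old HSC, and 2114, 1866 and 1876 CPM in young HSC. With the copies summed into Gapdh, the rise in old HSC was 0.48 ± 0.05 on the log2 scale (1.39-fold, SE on the log2 scale, edgeR adjusted p = 5.29e-08) in place of 2.42-fold. On this sum Gapdh stood beside Pgam1 and Pgk1 and below Eno1. The deposited counts of Gapdh were whole numbers in 1 of 9 libraries and those of both copies in none, while those of Aldoa, Tpi1 and Pkm were whole in all 9. Hk2 and Pfkl, which have no copy by this definition, were whole in 1 and 0 libraries, and Pgam1, Eno1, Ldha and Pgk1 in 1 to 2, so fractional values were not particular to Gapdh and its copies. The sources used here do not state which step gave the fractions or how reads that match several loci were counted, so the division of reads between Gapdh and its copies is uncertain. All annotated pseudogenes together held 1.29% ± 0.04, 1.14% ± 0.07 and 1.53% ± 0.04 of counts in treated old, old and young HSC, and their part in the result was not tested.

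**Figure D2:**
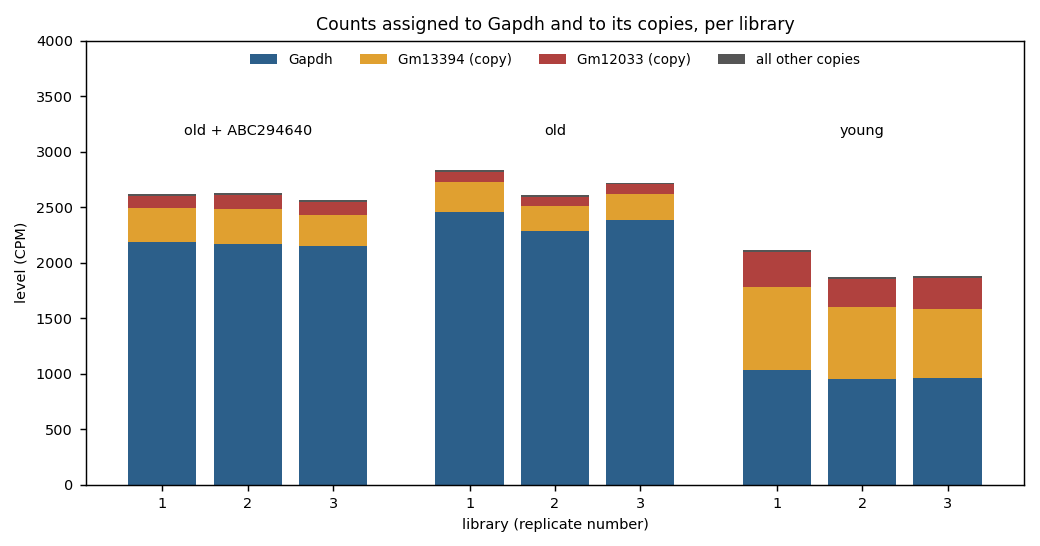
Stacked level in CPM (y axis, from 0) of Gapdh, Gm13394, Gm12033 and the other 70 Gapdh copies in each library (x axis, replicate number) of old HSC with ABC294640, old HSC and young HSC. The copies make up 16.1% to 17.3%, 12.2% to 13.2% and 49.0% to 50.9% of the stack, and the whole stack differs less between old and young HSC than Gapdh alone.

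The 5 enzymes after Gapdh rose in old HSC by 0.33 to 0.80 on the log2 scale. For each of them every old library, treated or not, lay above every young library. Of all genes tested, 22.8% had all untreated old libraries above all young ones. The share was 23.7% for treated old libraries. Pgk1 encodes phosphoglycerate kinase 1, which makes the first ATP of the payoff phase. It had 275, 284 and 275 CPM in treated old HSC, 292, 292 and 298 CPM in old HSC, and 214, 214 and 211 CPM in young HSC, a rise of 0.46 ± 0.04 in old over young HSC (SE, edgeR adjusted p = 1.74e-08). Pgk1 lies on the X chromosome, and 4 Y-linked genes summed to 123 to 146 CPM in treated old HSC, 128 to 142 CPM in old HSC and 8.25 to 10.3 CPM in young HSC. That gap runs with age in these libraries and cannot be told apart from it, for Pgk1 or for any other gene compared between old and young HSC. The sources used here give no sex for the animals.

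Pgam1 encodes phosphoglycerate mutase 1, which moves the phosphate group before dehydration. It had 569, 582 and 578 CPM in treated old HSC, 604, 556 and 579 CPM in old HSC, and 421, 411 and 415 CPM in young HSC. Pgam1 rose by 0.48 ± 0.04 in old over young HSC (SE, edgeR adjusted p = 1.19e-08), with no overlap. Eno1 encodes enolase 1, which forms phosphoenolpyruvate, and it also carries moonlighting roles outside glycolysis. It had 1194, 1204 and 1187 CPM in treated old HSC, 1299, 1227 and 1290.0 CPM in old HSC, and 743, 722 and 727 CPM in young HSC. Its rise of 0.80 ± 0.04 (1.74-fold, SE on the log2 scale, adjusted p = 1.17e-12) was the largest of the 10 once the Gapdh copies were summed. The 1 copy of Eno1 in the table, Eno1b, held 30 counts over all 9 libraries.

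Pkm encodes pyruvate kinase of muscle and proliferating tissues, the step that makes the second ATP. It had 479.7, 498 and 481 CPM in treated old HSC, 509, 472 and 500.1 CPM in old HSC, and 408, 379.8 and 389 CPM in young HSC. Pkm rose by 0.33 ± 0.04 in old over young HSC (SE, edgeR adjusted p = 4.88e-06). The table gives 1 count per gene, so the M1 and M2 splice forms of Pkm cannot be told apart. Of the 4 splicing factors listed for that choice, Hnrnpa2b1 fell, with 450 ± 7 CPM in old HSC and 528 ± 22 CPM in young HSC (SD, n = 3, adjusted p = 0.000174), and Ptbp1, Hnrnpa1 and Srsf3 were not called by edgeR. Srsf3, at 709 ± 23 CPM in old HSC and 655 ± 32 CPM in young HSC, was called by DESeq2 (adjusted p = 0.0296) but not by edgeR (adjusted p = 0.0541).

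Ldha encodes the A subunit of lactate dehydrogenase, which favours the conversion of pyruvate to lactate. It had 1938, 1982 and 1930.0 CPM in treated old HSC, 2040.0, 1950.1 and 1992 CPM in old HSC, and 1533, 1458 and 1477 CPM in young HSC. The lowest old library lay well above the highest young one, and Ldha rose by 0.42 ± 0.04 (SE, edgeR adjusted p = 1.71e-08). Tested against a change of 1.2-fold in place of no change, 6 enzymes remained called as higher in old HSC (Gapdh, Eno1, Pgam1, Pgk1, Ldha and Aldoa), against 6.31% of all genes. Pkm (adjusted p = 0.101), Tpi1 (0.417), Hk2 and Pfkl did not pass that test.

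**Figure D3:**
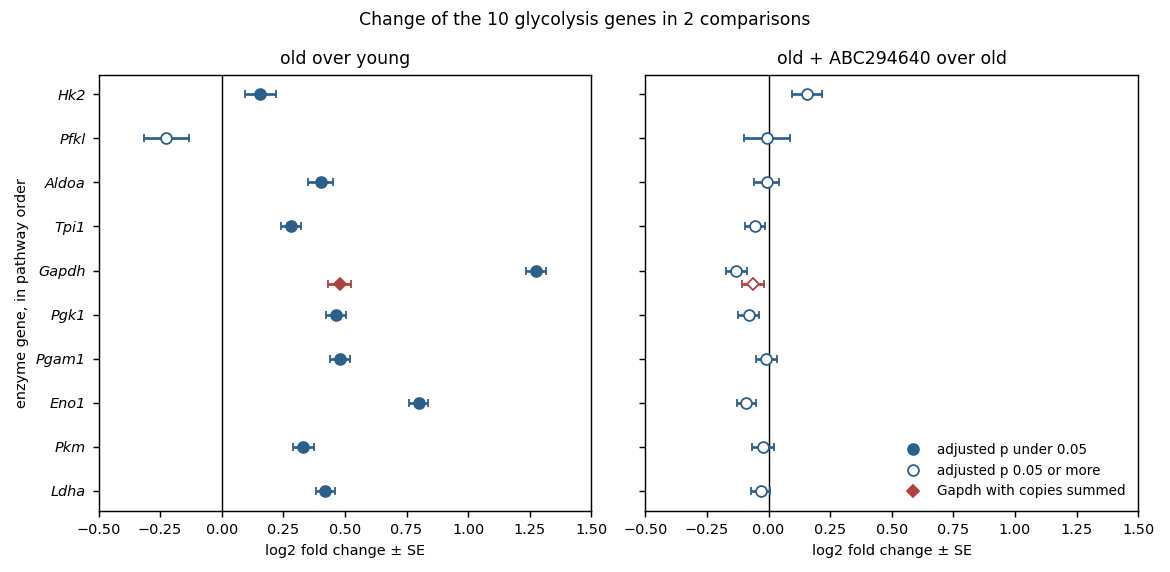
Log2 fold change ± SE (x axis, edgeR) of the 10 enzymes in pathway order from top to bottom, for old over young HSC (left) and for old HSC with ABC294640 over old HSC (right). Filled points have an adjusted p under 0.05 and diamonds show Gapdh with its copies summed. In the left panel Gapdh moves to 0.48 with the copies from 1.28 without them, and in the right panel no point is filled.

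**Figure D4:**
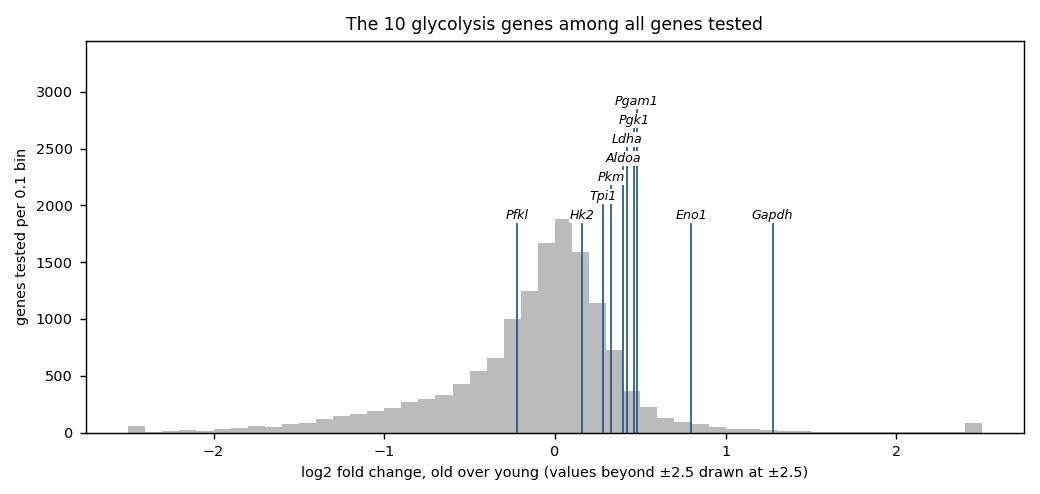
Histogram of the log2 fold change of old over young HSC over the 14227 genes tested (x axis, bins of 0.1, with values beyond 2.5 in size drawn at the ends) and the number of genes per bin (y axis), with the 10 enzymes as labelled lines. Pfkl lies left of 0, at -0.22, the other 9 enzymes lie right of 0, and Eno1 and Gapdh lie farthest right, at 0.80 and 1.28.

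The second comparison asks what the SphK2 inhibitor changed in old HSC. None of the 10 enzymes was called in treated against untreated old HSC by edgeR, and none by DESeq2, against 1.19% of all genes tested by edgeR, of which 0.766% were higher and 0.429% lower in treated old HSC. None passed the test beyond 1.2-fold as higher, against 0.0141% of all genes. At an unadjusted p under 0.05 there were 3, namely Gapdh, Eno1 and Hk2, against 8.83% of all genes. The log2 fold changes ran from -0.13 to 0.16, with a median of -0.03 against 0.00 for all genes. Hk2 had the 1 positive value, 0.16 ± 0.06 (SE, adjusted p = 0.383). The libraries of treated and untreated old HSC did not overlap for 4 enzymes, Gapdh, Eno1, Pgk1 and Tpi1, each lower in treated old HSC, against 15.5% of all genes tested in either direction, of which 7.13% were lower and 8.34% higher.

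Gapdh averaged 2170 ± 19 CPM in treated old HSC and 2376 ± 89 CPM in old HSC (SD, n = 3 each), a log2 fold change of -0.13 ± 0.04 (SE, edgeR adjusted p = 0.198). Both copies went the other way and were called: Gm13394 rose by 0.30 ± 0.07 (adjusted p = 0.0268) and Gm12033 by 0.42 ± 0.07 (adjusted p = 0.00272). With the copies summed, Gapdh had a log2 fold change of -0.06 ± 0.05 (adjusted p = 0.770). Without the summing, Gapdh was called as lower when the first young library was left out of the fit (adjusted p = 0.0192), in a fit of these 2 groups alone (0.0445) and with trends on GC content and length removed (0.00972), within a range of 0.00770 to 0.539 over the 17 other settings that did not sum the copies. Eno1 averaged 1195 ± 8 CPM in treated old HSC and 1272 ± 39 CPM in old HSC, with a log2 fold change of -0.09 ± 0.04 (adjusted p = 0.460). These values and those of old against young HSC rest on the same 3 untreated old libraries.

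The third comparison sets treated old HSC against young HSC, and it shares libraries with both others. The gap in Y-linked genes runs with this comparison too. Here too 9 enzymes were called as higher and none as lower, against 19.1% of all genes called as higher and 37.6% in either direction. The libraries did not overlap for 9 enzymes, against 48.4% of all genes, and 6 passed the test beyond 1.2-fold, against 5.64% of all genes. Gapdh stood 1.14 ± 0.04 higher on the log2 scale in treated old HSC (SE, edgeR adjusted p = 2.63e-14) and 0.41 ± 0.05 higher with its copies summed (adjusted p = 4.80e-07). Eno1 was 0.71 ± 0.04 higher, and Pgam1, Aldoa, Ldha, Pgk1, Hk2, Pkm and Tpi1 were 0.23 to 0.47 higher. Hk2, whose groups overlapped in old against young HSC, was 0.31 ± 0.06 higher in treated old HSC with no overlap (adjusted p = 0.000431). Pfkl was at -0.23 ± 0.09 (adjusted p = 0.0519).

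Taken as a share of each library, the 10 enzymes held 0.817%, 0.832% and 0.811% of all counts in treated old HSC, 0.885%, 0.850% and 0.865% in old HSC, and 0.610%, 0.577% and 0.578% in young HSC. The young libraries were apart from both old groups, and so were treated from untreated old libraries. With the Gapdh copies added, the mean shares were 0.862% ± 0.013, 0.901% ± 0.020 and 0.689% ± 0.028 in treated old, old and young HSC (SD, n = 3). This is a sum over chosen genes, so it is given with no test.

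For 5 steps the share held by the listed enzyme was computed per kilobase of exons. Hk2 held 43.0% ± 0.25, 42.4% ± 2.1 and 38.5% ± 0.19 of the hexokinases Hk1, Hk2 and Hk3 in treated old, old and young HSC (SD, n = 3), below Hk3, which had 14.5, 13.3 and 14.0 CPM per kilobase of exons against 13.0, 11.7 and 10.5 CPM per kilobase for Hk2. Ldha held 94.4% ± 0.29, 94.7% ± 0.15 and 92.5% ± 0.35 of Ldha and Ldhb, the second of which encodes the heart-type subunit. Eno1 held 98.8% ± 0.10, 99.1% ± 0.15 and 97.8% ± 0.12 of the enolases, and Aldoa held 99.8% of Aldoa and Aldoc in every group. The old and young libraries did not overlap for these 4 shares. Pfkl held 43.5% ± 2.3, 43.2% ± 3.0 and 46.7% ± 2.4 of the phosphofructokinases, with overlapping libraries. The order of Pfkp and Pfkl depends on the length used. Per kilobase of the longest coding transcript, Pfkp stood above Pfkl in all 3 groups. The values were 8.07 against 5.58 CPM per kilobase in treated old HSC and 8.44 against 5.61 CPM per kilobase in old HSC. In young HSC they were 7.00035 ± 0.304 against 6.53 ± 0.635 CPM per kilobase, within the SDs (n = 3). Per kilobase of exons, Pfkp stood below Pfkl in treated old, old and young HSC. There Pfkp had 2.496, 2.61 and 2.17 CPM per kilobase and Pfkl 3.12, 3.13 and 3.65 CPM per kilobase. Over 15 such comparisons the smallest two-sided exact permutation p was 0.1, which is the smallest that 3 against 3 libraries allow (adjusted p = 0.188), so none could pass the threshold.

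Among 21 other glycolytic enzymes and isozymes, 16 were tested and 5 fell under the filter on low counts. In old against young HSC 5 rose and 3 fell, that is 8 of 16 called, against 39.4% of all genes, with a median log2 fold change of -0.02 against -0.03 for all genes. Gpi1, which encodes the isomerase between hexokinase and phosphofructokinase, averaged 412 ± 17 CPM in old HSC and 309 ± 14 CPM in young HSC (SD, n = 3, edgeR adjusted p = 3.61e-07). Adpgk, an ADP-dependent glucokinase, averaged 57.4 ± 1.6 CPM in old HSC and 37.4 ± 1.0 CPM in young HSC (adjusted p = 4.46e-08). Pfkp, the platelet-type phosphofructokinase, averaged 35.0 ± 0.2 CPM in old HSC and 29.0 ± 1.3 CPM in young HSC (adjusted p = 0.00222). The lactate dehydrogenase gene Ldhc rose at a low level, with 3.90 ± 0.35 CPM in old HSC and 2.62 ± 0.42 CPM in young HSC. Bpgm, the mutase that makes the oxygen-affinity regulator bisphosphoglycerate and named here after its value was seen, averaged 13.9 ± 1.2 CPM in old HSC and 11.1 ± 2.0 CPM in young HSC. The 3 that fell, Pklr, Pgk2 and Eno3, all averaged under 5 CPM in both groups. Ldhb averaged 53.2 ± 1.0 CPM in old HSC and 57.2 ± 2.0 CPM in young HSC (adjusted p = 0.150).

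Of 9 tested carriers of glucose and lactate, 3 rose and 1 fell in old HSC, a share of 44.4% called against 39.4% of all genes. Slc2a1, the glucose transporter GLUT1, averaged 22.2 ± 1.9 CPM in old HSC and 13.6 ± 2.2 CPM in young HSC (SD, n = 3, edgeR adjusted p = 1.72e-05). Slc16a3, the lactate exporter MCT4, averaged 12.5 ± 0.63 CPM in old HSC and 5.46 ± 1.6 CPM in young HSC (adjusted p = 1.39e-06), and Slc16a1, the monocarboxylate transporter MCT1, 96.6 ± 3.1 and 73.2 ± 0.76 CPM (adjusted p = 1.23e-06). Emb, which encodes a chaperone of monocarboxylate transporters, fell, with 359 ± 6 CPM in old HSC and 472 ± 25 CPM in young HSC (adjusted p = 6.87e-07). Of 6 tested genes that set fructose 2,6-bisphosphate and flux, Pfkfb4 and Pfkfb1 rose and Tigar and Pfkfb2 fell, a share of 66.7% called. Tigar, a bisphosphatase that restrains the pathway, averaged 15.0 ± 0.96 CPM in old HSC and 20.8 ± 2.3 CPM in young HSC (adjusted p = 0.000882).

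Of 13 genes for the entry of pyruvate into mitochondria, 7 rose and 1 fell in old HSC, a share of 61.5% called against 39.4% of all genes, with a median log2 fold change of 0.20. Mpc1, a subunit of the pyruvate carrier, averaged 424 ± 6 CPM in old HSC and 313 ± 3 CPM in young HSC (SD, n = 3, edgeR adjusted p = 3.81e-08). Dlat, Dld and Pdhb, which encode subunits of the pyruvate dehydrogenase complex, rose by 0.41, 0.41 and 0.21 on the log2 scale. Of 5 tested genes of gluconeogenesis, the reverse pathway, Fbp1 rose while Pck1 and Pck2 fell, that is 3 of 5 called. The Pck2 call (edgeR adjusted p = 0.0482) was lost with DESeq2 (adjusted p = 0.0988). Fbp1, fructose-1,6-bisphosphatase, averaged 44.0 ± 4.6 CPM in old HSC and 22.9 ± 1.1 CPM in young HSC (adjusted p = 5.83e-09).

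**Figure D5:**
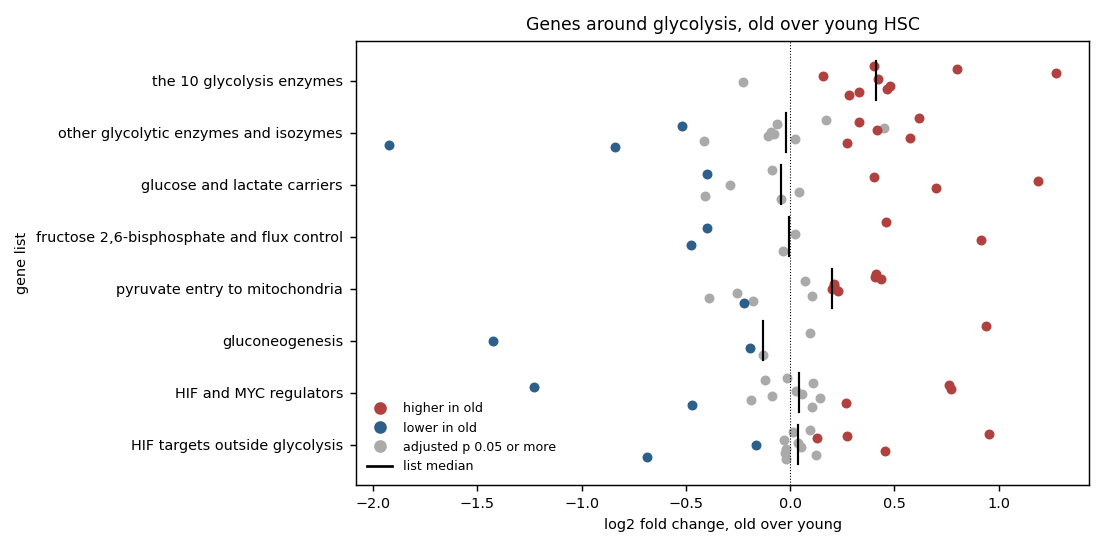
Log2 fold change of old over young HSC (x axis) for each tested gene of 8 lists (rows), with called genes in red (higher in old HSC) or blue (lower in old HSC), the rest in grey, and the list median as a bar. The 10 glycolysis enzymes have a median of 0.41, the genes of pyruvate entry 0.20, and the other glycolytic enzymes and isozymes -0.02.

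HIF-1 and MYC are known regulators of glycolytic transcription. Of 14 tested genes of these regulators, 3 rose and 2 fell in old HSC, a share of 35.7% called, near the 39.4% of all genes. Hif1a, the oxygen-regulated subunit of HIF-1, averaged 83.6 ± 5.2 CPM in old HSC and 49.1 ± 3.2 CPM in young HSC, a log2 fold change of 0.77 ± 0.06 (SD of levels and SE of the change, n = 3, edgeR adjusted p = 2.70e-09). Egln3, a prolyl hydroxylase that marks HIF for degradation, averaged 22.3 ± 1.8 CPM in old HSC and 13.2 ± 0.54 CPM in young HSC (adjusted p = 8.81e-07). Myc rose by 0.27 ± 0.05, Mycn fell by 0.47 ± 0.12, and Epas1, which encodes HIF-2 alpha and was named after its value was seen, fell at under 1 CPM, by edgeR (adjusted p = 0.0453) and not by DESeq2 (adjusted p = 0.0813). Of 15 tested HIF targets outside glycolysis 4 rose and 2 fell, a share of 40.0% called, near that of all genes, with a median log2 fold change of 0.04. Bhlhe40, Mxi1 and Bnip3 rose by 0.96, 0.45 and 0.27 and Fam162a fell by 0.16. The targets that were not called included Car9, Vegfa and Adm, picked out after their values were seen. Their log2 fold changes were -0.03, -0.02 and 0.10. Adm was near the floor, at 0.62 ± 0.18 CPM in old HSC and 0.57 ± 0.15 CPM in young HSC (SD, n = 3). In treated against untreated old HSC none of the 82 tested genes in the 8 lists around glycolysis was called by edgeR or by DESeq2, against 1.19% of all genes by edgeR. Of the 82, 5 had an unadjusted p under 0.05 (edgeR), against 8.83% of all genes. In treated old against young HSC 34 of the 82 were called (41.5%, against 37.6% of all genes), with Hif1a at 0.66 ± 0.06, Slc16a3 at 1.06 ± 0.14 and Adpgk at 0.52 ± 0.06 on the log2 scale.

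The promoters of the members are shown here because 9 of the 10 rose together with age. In the RefSeq promoter table (GRCm38.p6, 250 bases before to 50 bases after each gene's start) all 10 symbols matched, with 16 windows. The core of the HIF binding site, ACGTG or GCGTG on either strand, was found in at least 1 window of 9 of the 10 genes, all but Tpi1, against 46.7% of 27025 genes. These are not the same 9 genes that rose: Tpi1 rose without a match, and Pfkl, which did not rise, has 1. A gene with more windows has more chances of a match. The shares given for comparison cover all genes with a promoter window, not only those tested here. They were not matched to the members for level or base composition. By window, the core was in 13 of the 16, against 43.8% of 32851 windows. The form ACGTG alone was found in 7 of the 10, against 21.8% of genes, and GCGTG alone in 5 of the 10, against 35.2% of genes. Each form was in 8 of the 16 windows, against 19.6% of windows for ACGTG and 32.4% for GCGTG. A link between these matches and the rise was not tested. The sequence CACGTG, the E-box that MYC can bind and which contains ACGTG on both strands, was found in 1 member, Ldha, against 8.09% of genes. Ldha and Pgk1 are printed as examples, as the 250 bases before the start (chr7:46845554-46845803 and chrX:106186850-106187099, both plus strand), with capitals marking the matches of ACGTG or GCGTG on either strand. A match is a run of letters, not a measured binding site.
Ldha: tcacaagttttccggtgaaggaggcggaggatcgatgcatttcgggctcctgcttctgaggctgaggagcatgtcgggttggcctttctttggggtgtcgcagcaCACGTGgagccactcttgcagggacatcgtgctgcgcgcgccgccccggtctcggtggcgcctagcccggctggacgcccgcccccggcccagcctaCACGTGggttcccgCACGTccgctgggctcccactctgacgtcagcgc
Pgk1: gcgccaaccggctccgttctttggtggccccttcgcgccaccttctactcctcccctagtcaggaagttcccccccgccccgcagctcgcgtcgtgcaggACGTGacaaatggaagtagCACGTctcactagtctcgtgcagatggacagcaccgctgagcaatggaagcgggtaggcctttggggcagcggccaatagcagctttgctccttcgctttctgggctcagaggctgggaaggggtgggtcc

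Other differences between the groups ran alongside the enzymes. The 14 granulocyte and monocyte markers summed to 52880 to 54198 CPM in treated old HSC, 53007 to 56406 CPM in old HSC and 36279 to 40661 CPM in young HSC, and 9 of them rose and 4 fell in old against young HSC (92.9% called by edgeR). Of all genes tested in that comparison, 19.6% were higher, 19.8% were lower and 39.4% were called in either direction. The 10 erythroid markers found summed to 1096 to 1105 CPM, 995 to 999 CPM and 1751 to 1792 CPM in the same order, with 1 higher and 8 lower in old HSC of 9 tested. The 10 HSC markers summed to 409.8 to 414, 403 to 405 and 489.8 to 497 CPM, with 1 higher and 5 lower in old HSC. The 10 mitosis genes summed to 1715 to 1731, 1664 to 1696 and 1386 to 1405 CPM, with 7 higher and 1 lower in old HSC (80.0% called). Megakaryocyte markers summed to 312 to 332, 249 to 274 and 475 to 514 CPM, and B and plasma cell markers to 635 to 661, 672 to 757 and 336 to 379 CPM, in treated old, old and young HSC. Of 7 tested megakaryocyte markers none was higher and 4 were lower in old HSC. Of 6 tested B and plasma cell markers 2 were higher and 1 was lower. T and NK cell markers summed to 1901 to 2067, 1735 to 1892 and 1331 to 1485 CPM, and stromal and endothelial markers to 34.0 to 35.3, at most 36.7 and 39.1 to 45.5 CPM, in the same order. Of 4 tested T and NK cell markers, 1 was higher and 1 lower in old HSC. Their median log2 fold change was -0.43, so the higher sum in old HSC does not hold for the typical marker. Of 5 tested stromal and endothelial markers none was higher and 2 were lower. No marker found from these lists was at 0 in all 9 libraries. Their part in the changes of the glycolytic enzymes was not tested.

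Across the 9 libraries, 5 genes outside the list had the pattern most like the mean of the 10 enzymes among 7715 genes of at least 10 CPM. They were Rgcc, Ddx39a, Spi1, Nfkbia and Tubb4b, with Pearson correlations of 0.9957 to 0.9972 on log2 CPM, given as a description of libraries that share the same groups. Rgcc averaged 736 ± 10 CPM in treated old HSC, 763 ± 25 CPM in old HSC and 476 ± 32 CPM in young HSC (SD, n = 3). Spi1, which encodes the myeloid transcription factor PU.1, averaged 202 ± 9, 212 ± 7 and 145 ± 7 CPM in the same order. Within the list, the correlation over the 9 libraries was 0.999 between Gapdh and Eno1 and -0.67 between Pfkl and Eno1, and it carries the same difference between groups.

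Some reads may also be shared with overlapping genes. Gapdh overlaps Iffo1, Aldoa overlaps Fam57b and Tpi1 overlaps Spsb2, each on the opposite strand, and the sources used here do not say whether strand was used in counting. Hk2 overlaps the antisense gene Gm17034, and Pkm overlaps Gm49759 on the same strand, neither of them analysed here. Iffo1, Fam57b and Spsb2 held 2925, 19 and 289 counts over all 9 libraries, where Gapdh held at least 19378 counts in each library. Other members have copies too: Ldha has 7 in the annotation, Eno1 5, Pgk1 4, Pgam1 2, Pkm 2 and Tpi1 1. Only 1 of these, Eno1b, was in the count table, so the summing done for Gapdh could not be done for the rest. Of the words used to find copies, 54.7% in Pgk1, 37.1% in Pgam1, 34.7% in Pkm and 28.5% in Eno1 also occur in other genes. The value was 28.1% for Gapdh, 19.6% for Ldha, 16.98% for Aldoa and 10.5% for Tpi1. It was 0.235% for Hk2 and 0.463% for Pfkl. How far reads of these members were shared was not tested.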

How the data were processed

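The authors deposited 1 table with an expected count per gene and library for polyadenylated RNA of 9 libraries, and which step made some values fractional is not stated. The submitters' processing notes name the build mm10 and, in no stated role or order, HTSeq 0.10.0, STAR 2.6.1d, edgeR 3.24.3 and Trim Galore 0.6.2. Per the labels' protocols, cDNA from PCR amplification was made into transposase-based libraries and sequenced as paired ends. Of the non-zero values 56.0% were whole, so all were rounded to whole numbers before testing. Each of the 23317 gene IDs was found in GENCODE release 21 for mouse (GRCm38), 21369 of them under the same symbol.

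The 9 libraries entered 1 edgeR quasi-likelihood model (version 4.0.16, R 4.3.3) that had the group as its term, TMM normalization and the default filter on low counts, and p-values were adjusted by Benjamini-Hochberg over all 14227 genes tested, with a threshold of 0.05. The common biological coefficient of variation was 0.0583. Levels are CPM on library sizes scaled by TMM. Groups came from the sample titles. The fit was tested on simulated counts of 14227 genes. Over the 3 comparisons it recovered 10 to 12 of 50 genes changed by 1.2-fold, and 42 to 44 of 50 changed by 2-fold. The changed genes were drawn from all genes tested, whatever their level. Copies were found by 31-base words in GENCODE transcripts, and aligned with Biopython 1.88. Other steps used Python 3.11.15, pandas 2.3.3 and scipy 1.17.1.

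The text names all 10 enzymes, the isozymes of their steps, up to 4 genes of smallest p per list, and the 5 genes of most similar pattern with at least 10 CPM and a symbol that is not that of a predicted gene or pseudogene. The enzymes and the gene lists were chosen with earlier results of these data known. Alternatives were RLE size factors, DESeq2 1.42.0, other filters on low counts, a fit of 2 groups alone, a replicate block, removal of trends on GC content and length, a 1.2-fold threshold, summed copies, other gene lengths or totals for shares, and leaving out each library.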

Additional observations from a re-analysis of the deposited data

How the results depend on the processing

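Under 18 other settings, with the 1.2-fold test aside, the 9 rises in old HSC kept their direction, and all but that of Hk2 stayed past the threshold. The Hk2 rise was lost with the stricter filter (at least 5 CPM in 3 libraries, adjusted p = 0.138), with the 2 groups alone (0.0560) and with a replicate block (0.0512). In the labels, same-numbered libraries share no more than a number. Their deviations from the group means correlated at -0.08 to 0.13 over 9 pairs, against -0.10 to 0.07 over 18 pairs of other numbers. Deviations from means of 3 libraries are tied to each other, so these values cannot settle whether the numbers mark pairs. The block moved no count of enzymes called by over 1.5 times. With libraries left out in turn, enzymes called as lower ranged from 0 to 1 in each of the 3 comparisons. That 1 was Pfkl against young HSC, without the second young or the second treated library, and Gapdh in treated against old HSC without the first young library. The stricter filter, and GC and length trends removed with or without the block, also gave 1 enzyme, Pfkl, as lower against young HSC. The 2 groups alone, and the same trends removed, gave 1, Gapdh, as lower in treated against old HSC. The cause was not tested. Other glycolytic enzymes and isozymes called as higher in old HSC numbered 3 (stricter filter, fewer genes tested), 2 (1.2-fold) and 3 to 5 (libraries left out, lowest without the first young one), and as lower 1 to 4 (lowest without the second old one). In treated old against young HSC they were 2 higher (stricter filter) and 2 lower (trends removed, either way).

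All genes called in old against young HSC were 898 higher and 1347 lower beyond 1.2-fold, and in treated old against young HSC 802 and 1386, with 1732 lower under the stricter filter. In treated against old HSC they were 219 higher and 114 lower with no filter, 164 and 96 with the 2 groups alone, 2 and 13 beyond 1.2-fold, and 124 or 125 lower with trends removed (without and with the block). Leaving out libraries gave 17 to 175 higher and 31 to 111 lower, the fewest without the second treated library and the most without the first young one. In that comparison, 4 uncalled changes turned sign as libraries were left out: Pgam1 (-0.0401 to 0.0224), Pkm (-0.0558 to 0.000847), Aldoa (-0.0416 to 0.0212) and Pfkl (-0.0922 to 0.0584). Without a filter the median of all genes in old against young HSC was -0.11 in place of -0.03, and changes read relative to it would be larger by that shift.

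With coding transcript length, differences in isozyme share, in percentage points, were 0.0205 (Aldoa), 0.552 (Eno1) and 1.49 (Ldha) for old minus young HSC, 0.434 (Eno1) and 1.31 (Ldha) for treated old minus young HSC, and -0.118 (Eno1) for treated minus untreated old HSC. With copies summed, the share of counts in the enzymes differed by 0.211 and 0.173 percentage points for old and treated old minus young HSC. Depth limited Pfkl most, at 323 to 653 counts per library, against 19378 or more for Gapdh.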
